A study of Mus musculus with 7 samples.

Results

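Genes for 10 proteins by which astrocytes shape synapses, 8 secreted or shed organisers and 2 engulfment receptors, were followed across amygdala libraries of mice whose astrocytes received a guide RNA against Egfr (sgEgfr) or a control guide against the Rosa locus (sgRosa). The members were taken by gene symbol from a list of matricellular, glypican and engulfment genes, and all 10 listed symbols were among the 35976 genes of the count table: Sparcl1, Sparc, Thbs2, Thbs4, Gpc4, Gpc5, Gpc6, Chrdl1, Megf10 and Mertk. Both groups were male C57BL/6J mice, of an age not given in the sources used here, that received an adeno-associated virus in the amygdala carrying Cas9 under the astrocyte promoter GfaABC1D, with sgEgfr (3 libraries) or sgRosa, labelled sgRosa26 as a genotype (4 libraries). After more than 2 weeks of expression every mouse was restrained in a tube for 7 days, then fear conditioned (1 day) and put through extinction (3 days), so that both groups were stressed. Cells were released with papain and enriched with beads against ACSA-2, a surface antigen of astrocytes, and libraries were made from 5 ng of RNA. The labels did not say whether a library came from 1 mouse or from pooled mice, so the p-values measured the spread between libraries, which may be technical.

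Astrocytes secrete proteins that tell neurons where to build synapses and carry receptors that remove them. Hevin, the product of Sparcl1, bridges neurexins and neuroligins across the cleft and promotes excitatory synapses, and SPARC, its relative, opposes it. Thrombospondins start structurally normal but silent synapses through the calcium channel subunit encoded by Cacna2d1. The glypicans encoded by Gpc4 and Gpc6 draw AMPA receptors to the surface of young synapses, and chordin-like 1 promotes the later maturation of synapses. MEGF10 and MERTK are receptors with which astrocytes take up synaptic material.

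Depth ran from 14983594 to 22579222 counts in sgEgfr libraries and from 5852870 to 18345655 in sgRosa libraries. Between the libraries sgRosa 3 and sgRosa 4 the counts of 13563 genes gave a chi-square of 1.04 per degree of freedom, close to sampling noise, where the 20 remaining pairs gave 14.8 to 158. These libraries were therefore added up and treated as 1 sample, sgRosa 3+4, which left 3 samples a group. All 20 astrocyte markers were detected in every library, with 1.06% to 1.46% of counts in sgEgfr and 0.801% to 1.66% in sgRosa. Those of oligodendrocytes took more, 8.19% to 14.4% in sgEgfr and 7.30% to 10.9% in sgRosa, so transcripts of other cells were present. Egfr itself had a log2 fold change of -0.13 (95% confidence interval -1.39 to 1.14, edgeR adjusted p = 0.997).

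No member passed the test between the guides. Levels are given as CPM, counts scaled to a common library size, on library sizes scaled with the trimmed mean of M values (TMM), and fold changes as sgEgfr over sgRosa from edgeR's quasi-likelihood test, with p-values adjusted over the 14936 genes that passed a filter on low counts. Of the 10 members, 9 passed that filter, and 0 of them had an adjusted p under 0.05, beside 0 of all genes tested (0%). At an unadjusted p under 0.05 there were 0 of the 9 members and 401 of all genes (2.68%), and DESeq2 and limma-voom also called 0 members. CPM ranges overlapped between the groups for each of the 9 members, where 7.61% of all genes tested had ranges apart. The log2 fold changes were positive for 7 and negative for 2 of the 9, with a median of 0.18, beside 52.9% positive and a median of 0.02 over all genes.

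**Figure D1:**
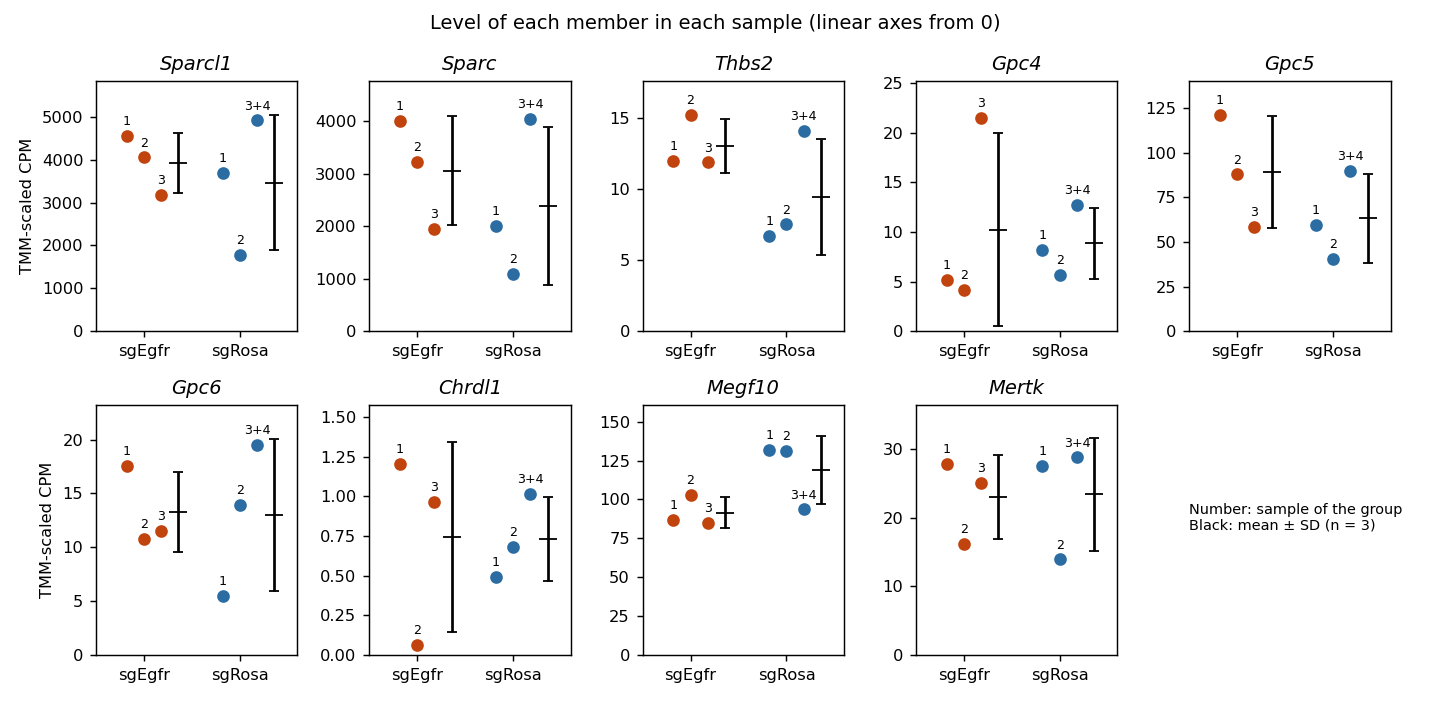
TMM-scaled CPM of the 9 members that passed the filter, 1 panel a gene on a linear axis from 0, with sgEgfr samples on the left and sgRosa samples on the right, each numbered, and the mean ± SD (n = 3) in black. The groups overlap in each panel, and the spread within sgRosa is widest relative to the mean for Sparc, whose highest (3+4) and lowest (2) values are both sgRosa samples.

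Hevin and SPARC were by far the most abundant members. Per kilobase of exon, Sparcl1 averaged 1260 ± 382 CPM and Sparc 718 ± 320 CPM (SD, n = 6), which placed them 14th and 26th of 26763 genes with a length. Sparcl1 lies on chromosome 5 from 104079111 to 104113733, and Sparc on chromosome 11 from 55394500 to 55423183, both on the minus strand (GRCm38). Below them came Gpc5 at 17.1 ± 6.51 CPM per kilobase and Megf10 at 13.6 ± 2.76, whose sample ranges overlapped. Mertk was at 5.34 ± 1.496 CPM per kilobase, Gpc4 at 3.60 ± 2.49, Gpc6 at 2.045 ± 0.785 and Thbs2 at 1.61 ± 0.493, and among these 4 each overlapped with its neighbour in the order, while Mertk stayed below Megf10 in every sample. Chrdl1, at 0.109 ± 0.0614 CPM per kilobase, lay below Thbs2 in every sample, and Thbs4 was at the limit of detection.

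For Sparcl1 the levels were 4559, 4056 and 3178 CPM in samples sgEgfr 1, 2 and 3, against 3701, 1786.5 and 4919 CPM in sgRosa 1, 2 and 3+4. The sgEgfr samples all lay within the range of the sgRosa samples, which held both the highest and the lowest value. This gave 0.18 as the log2 fold change, with an SE of 0.39 (95% interval from -0.74 to 1.10, adjusted p = 0.997 with edgeR). Without sgRosa 2, the lowest sample, the value was -0.13.

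Sparc was at 3998, 3221 and 1949 CPM in sgEgfr, against 2007, 1098 and 4041 CPM in sgRosa 1, 2 and 3+4. Samples sgRosa 1 and 2 were low and 3+4 was the highest of all 6, so that again no sgEgfr sample lay outside the sgRosa range. Its log2 fold change was 0.36 (SE 0.50, interval -0.80 to 1.52, edgeR adjusted p = 0.997), with 0.02 left without sgRosa 2.

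Both genes put the 6 samples in the same order, sgRosa 3+4 highest, then sgEgfr 1, sgEgfr 2, sgRosa 1, sgEgfr 3 and sgRosa 2. SPARC nevertheless varied more than hevin, by 3.68-fold between the lowest and the highest sample against 2.75-fold. The count ratio of Sparc to Sparcl1, which needs no library scaling, was 0.877, 0.794 and 0.613 in sgEgfr 1 to 3, against 0.542, 0.614 and 0.821 in sgRosa 1, 2 and 3+4. The antagonist thus had fewer counts than hevin in each sample, and the ratio overlapped between the groups. Its log2 value averaged -0.41 ± 0.27 in sgEgfr and -0.62 ± 0.31 in sgRosa (SD, n = 3 each, exact two-sided permutation p = 0.5, adjusted p = 0.7 over 4 ratios). With 3 samples against 3 the smallest p such a test can give is 0.1.

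Of the member thrombospondins, Thbs2 passed the filter on low counts and Thbs4 did not. Thbs2, on chromosome 17 from 14665500 to 14694235, was at 11.985, 15.2 and 11.9 CPM in sgEgfr, against 6.70, 7.53 and 14.1 CPM in sgRosa 1, 2 and 3+4. All 3 sgEgfr samples were above sgRosa 1 and 2, and sgRosa 3+4 lay among them. Its log2 fold change came to 0.46 with an SE of 0.34 (interval from -0.32 to 1.25, adjusted p = 0.997 with edgeR). Thbs4 had 1 count in sgEgfr 1 and 0 in the other 6 libraries. A count of 0 allows up to 3 counts, which covers counting error only. On total counts without TMM scaling, 3 counts stood for 0.133 CPM in the deepest library, sgEgfr 3, and 0.513 CPM in the shallowest, sgRosa 4. No fold change is given for Thbs4, and its ratio to Thbs2 was not formed.

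The 3 glypicans, proteins with heparan sulphate chains on a lipid anchor, did not vary alike. Gpc5, on chromosome 14 from 115092215 to 116525179, was at 121, 87.8 and 58.6 CPM in sgEgfr, against 59.5, 40.3 and 89.8 CPM in sgRosa 1, 2 and 3+4. Its highest value was in sgEgfr 1 and its lowest in sgRosa 2. It shares 107 exon bases with a gene on the opposite strand, whose reads cannot be told apart if counting ignored strand. A log2 fold change of 0.50 was fitted (SE 0.35, interval -0.32 to 1.31, edgeR adjusted p = 0.997), with 0.21 without sgEgfr 1 and 0.25 without sgRosa 2.

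Gpc4, on chromosome X from 52053021 to 52165252, was at 5.14, 4.12 and 21.5 CPM in sgEgfr, against 8.19, 5.64 and 12.7 CPM in sgRosa 1, 2 and 3+4. Sample sgEgfr 3 stood highest, while sgEgfr 1 and 2 were the lowest of all 6. The fitted log2 fold change, 0.22 with an SE of 0.65 (interval from -1.30 to 1.74, adjusted p = 0.997 with edgeR), turned to -0.93 without sgEgfr 3 and to -0.03 without sgRosa 2. The summed share of counts of ependymal and choroid plexus markers was high in the same 2 samples as Gpc4. It was 0.0121%, 0.00409% and 0.0975% in sgEgfr, against 0.0110%, 0.00573% and 0.0382% in sgRosa 1, 2 and 3+4. Single markers differed. Foxj1 was highest in sgEgfr 3 (296 CPM) and sgRosa 3+4 (128 CPM), but Ttr in sgRosa 1 (46.2 CPM). Clic6 was at 30.5 CPM in sgEgfr 1, 26.1 in sgEgfr 3 and 29.8 in sgRosa 3+4. Of these 10 markers, 7 were detected in every library and none was at 0 in all, and their part in the Gpc4 values was not tested.

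Gpc6, on chromosome 14 from 116925315 to 117976544, was at 17.6, 10.8 and 11.5 CPM in sgEgfr, against 5.50, 13.9 and 19.5 CPM in sgRosa 1, 2 and 3+4. The sgRosa samples again held both ends of the range. Its log2 fold change was 0.03 (SE 0.45, interval -1.02 to 1.09, edgeR adjusted p = 0.997), -0.22 without sgEgfr 1 and -0.33 without sgRosa 1. The count ratio of Gpc4 to Gpc6 was 0.292, 0.382 and 1.86 in sgEgfr, against 1.49, 0.406 and 0.651 in sgRosa 1, 2 and 3+4. That of Gpc5 to Gpc6 was 6.89, 8.13 and 5.08 in sgEgfr, against 10.8, 2.90 and 4.60 in sgRosa. Both ratios overlapped between the groups (exact two-sided permutation p = 0.7 and 0.6, adjusted p = 0.7 for both).

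Chrdl1, a secreted antagonist of bone morphogenetic proteins (BMPs), was close to the limit of detection, with 19, 1 and 22 counts in sgEgfr 1 to 3, against 7, 13 and 16 counts in sgRosa 1, 2 and 3+4. The level in sgEgfr 2, 0.0655 CPM from 1 count, was under what 3 counts stand for in that library. Those came to 0.175 CPM on its total count without TMM scaling. The other sgEgfr samples were at 1.20 and 0.962 CPM, against 0.494, 0.679 and 1.02 CPM in sgRosa. The fitted log2 fold change of 0.04 had an interval of -1.93 to 2.00 (edgeR adjusted p = 0.998), and it was negative without any one of sgEgfr 1, sgEgfr 3, sgRosa 1 or sgRosa 2 (-0.46, -0.20, -0.18 and -0.02). The interval thus held large differences in both directions.

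**Figure D2:**
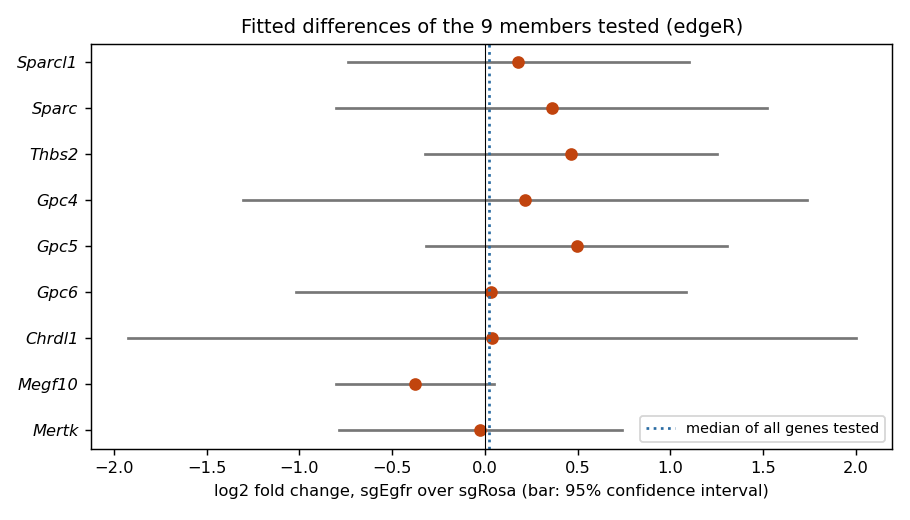
Log2 fold change of each tested member, sgEgfr over sgRosa, from edgeR (points) with its 95% confidence interval (bars), and the median of all genes tested as a dotted line. Each interval includes 0, with the narrowest for Megf10 (-0.80 to 0.05) and the widest for Chrdl1 (-1.93 to 2.00).

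The 2 engulfment receptors differed in how steady they were, with 1.56-fold between the lowest and highest sample for Megf10, the least of the members, and 2.07-fold for Mertk. Megf10, a scavenger receptor-like protein of the membrane, was at 87.1, 103 and 84.8 CPM in sgEgfr, against 132, 131 and 93.7 CPM in sgRosa 1, 2 and 3+4. Every sgEgfr sample was below sgRosa 1 and 2, and sgEgfr 2 lay above sgRosa 3+4. It averaged 91.6 ± 9.81 CPM in sgEgfr and 119 ± 21.9 CPM in sgRosa (SD, n = 3 each), a log2 fold change of -0.38 (SE 0.18, interval -0.80 to 0.05, unadjusted p = 0.0746, edgeR adjusted p = 0.997). That was the smallest unadjusted p among the members, and the sign stayed negative with each sample left out in turn (-0.52 to -0.30).

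Mertk, on chromosome 2 from 128698956 to 128802894, encodes a receptor kinase that recognises phosphatidylserine through the bridging proteins GAS6 and protein S. It was at 27.8, 16.1 and 25.0 CPM in sgEgfr, against 27.5, 13.9 and 28.7 CPM in sgRosa 1, 2 and 3+4. In each group sample 2 was low and the other two were alike, so the group means nearly coincided, at 22.96 ± 6.10 CPM in sgEgfr and 23.4 ± 8.24 CPM in sgRosa (SD, n = 3 each). Mertk's log2 fold change came to -0.02 with an SE of 0.33 (interval from -0.79 to 0.74, adjusted p = 0.997 with edgeR), and it was positive without sgEgfr 2, sgRosa 1 or sgRosa 3+4 (0.16, 0.11 and 0.15). The count ratio of Megf10 to Mertk was 3.13, 6.39 and 3.39 in sgEgfr, against 4.79, 9.44 and 3.26 in sgRosa 1, 2 and 3+4. The ratio was high in sample 2 of each group, with overlap between the groups (exact two-sided permutation p = 0.6, adjusted p = 0.7).

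**Figure D3:**
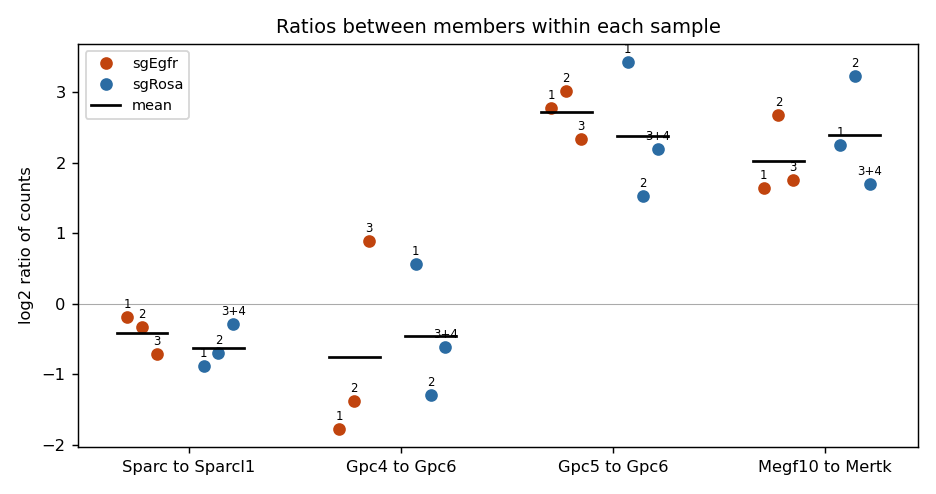
Log2 ratio of counts between pairs of members within each sample (vertical axis), sgEgfr on the left and sgRosa on the right of each pair, with numbered samples and the group mean as a line. The groups overlap for each of the 4 ratios, and all 6 values of Sparc to Sparcl1 lie below 0.

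Leaving out single samples moved several of these values by over 1.5 times. Without sgRosa 3+4 the log2 fold changes were 0.98 for Sparc, 0.52 for Sparcl1, 0.88 for Thbs2 and 0.84 for Gpc5, with unadjusted edgeR p of 0.0661, 0.254, 0.0204 and 0.0433. Megf10 moved less, to -0.52, with an unadjusted p of 0.0192 in the edgeR fit across all genes. Without sgEgfr 1 they were lower for Sparc (0.12), Sparcl1 (0.06) and Gpc5 (0.21), without sgRosa 2 also for Gpc5 (0.25), and without sgRosa 1 for Thbs2 (0.27). Without sgEgfr 3 they were 0.60 for Sparc and 0.31 for Sparcl1. Without sgRosa 3+4, genes at an unadjusted p under 0.05 numbered 960 of 15455, and 0 were called, with 0.738 as the smallest edgeR adjusted p of any gene. With the 7 libraries as separate samples, which counts that sample as 2, the log2 fold changes of Sparc, Thbs2, Gpc5 and Megf10 were 0.13, 0.29, 0.35 and -0.31.

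Several members varied over the samples much as the astrocyte markers did. Likeness was measured as the root mean square difference, on the log2 scale, between values centred on the mean of the 6 samples. Among 9 marker lists, the mean log2 CPM of the astrocyte list came closest for Sparcl1 (0.18), Mertk (0.23), Gpc5 (0.33) and Sparc (0.39), and from further off for Gpc4 (0.75) and Chrdl1 (0.96). For Thbs2 and Gpc6 the heat shock list was closest (0.28 and 0.48), and for Megf10 the oligodendrocyte list (0.31). For Megf10 and Chrdl1 the distance was about as large as the gene's own SD over the samples (0.28 and 1.05). For Gpc4 (SD 0.89) it was not far below. The SD is also slightly larger than a spread computed as the distance was. The closest list therefore shows no likeness for Megf10 and Chrdl1, and little for Gpc4. The astrocyte list was lowest in sgRosa 2 (-0.81 from the mean) and highest in sgRosa 3+4 (0.41), with sgEgfr 1 to 3 at 0.23, -0.01 and 0.14. In bulk samples, fewer cells of a type and less RNA per cell cannot be told apart.

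**Figure D4:**
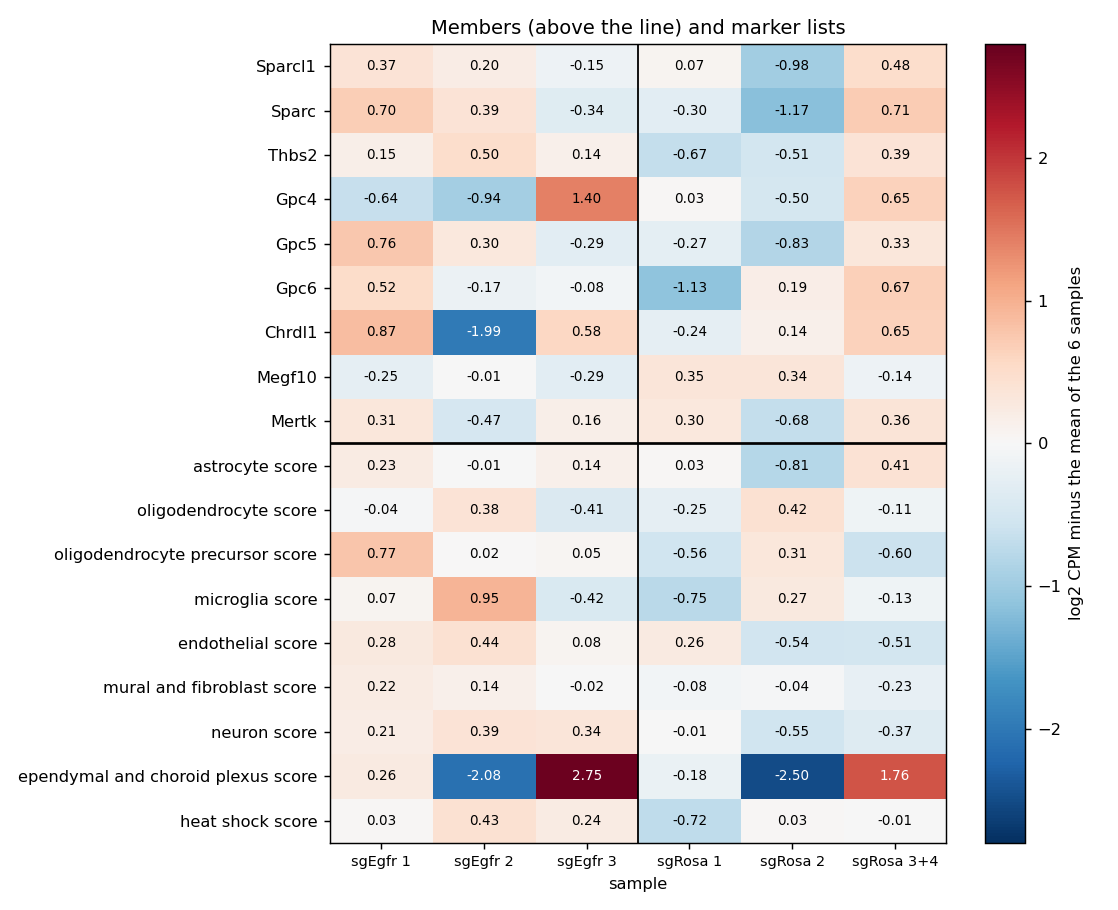
Centred log2 CPM of the 9 members tested (above the line) and centred mean log2 CPM of 9 marker lists (below it) in the 3 sgEgfr samples (left) and 3 sgRosa samples (right), with the value printed in each cell. Sparcl1, Sparc and Gpc5 share their low value in sgRosa 2 with the astrocyte list, and Gpc4 shares its high values in sgEgfr 3 and sgRosa 3+4 with the ependymal and choroid plexus list.

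The nearest single genes came closer still, but they were the best of 10825 candidates, where the lists were 9. A small distance is easier to find among so many, and no background distance was computed. Among 10825 genes with a mean of at least 5 CPM, those most like Sparcl1 were B230311B06Rik (0.05) and the astrocyte marker Ntsr2 (0.06). The nearest to Sparc were Ucp2, a mitochondrial carrier (0.11), and Kcne1l (0.16), and the nearest to Gpc5 were Naprt, an enzyme of NAD synthesis (0.12), and Spon1, which encodes the secreted matrix protein F-spondin (0.14). Thbs2 lay nearest to Sqrdl (0.05) and the ribosomal protein gene Rps2 (0.08), and Gpc4 to Ptrf, a coat protein of caveolae (0.18), and Hspa2 (0.22). Gpc6 lay nearest to Begain (0.13) and Zfp189 (0.15), Megf10 to Fryl (0.04) and Ermp1 (0.06), and Mertk to Iqsec3 (0.04) and Ccdc141 (0.08). For Chrdl1 the nearest were Dapk3 (0.34) and Ier5 (0.35), further off than the neighbours of any other member. Among the members themselves, Sparc and Gpc5 were the closest pair (0.22).

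The 250 bases upstream of the RefSeq starts of Sparc and Gpc5 (GRCm38.p6) are shown because these 2 members varied most alike over the samples, with capitals marking matches to 4 motifs searched on both strands. Sparc's stretch is chr11:55420081-55420330 on the minus strand, and that of Gpc5 is chr14:115091965-115092214 on the plus strand. The RefSeq start of Sparc lies within the longer gene span given above.
Sparc: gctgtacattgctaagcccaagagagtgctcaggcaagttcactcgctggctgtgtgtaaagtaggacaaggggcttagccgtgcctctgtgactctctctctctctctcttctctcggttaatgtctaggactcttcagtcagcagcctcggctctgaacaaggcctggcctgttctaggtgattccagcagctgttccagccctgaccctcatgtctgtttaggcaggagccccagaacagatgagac
Gpc5: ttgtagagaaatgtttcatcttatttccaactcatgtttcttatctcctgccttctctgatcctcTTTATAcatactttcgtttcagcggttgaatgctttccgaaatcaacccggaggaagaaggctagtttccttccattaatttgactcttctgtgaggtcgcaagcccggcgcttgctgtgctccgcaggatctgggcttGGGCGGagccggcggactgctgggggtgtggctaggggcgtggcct
The motifs were TGANTCA, the core of AP-1 sites, GGGCGG for Sp1, the CCAAT box and the TATA box TATAAA, and the matches shown did not overlap. They occur in 6.87%, 32.9%, 34.5% and 12.97% of 27025 such promoters. The Gpc5 stretch held 1 match to GGGCGG and 1 to the reverse complement of TATAAA, and the Sparc stretch held none of the 4. Of the 10 members, 6 had a promoter in the RefSeq table, and none of these held TGANTCA.

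Relative to astrocyte RNA, the members still overlapped between the guides. Each member's CPM was divided by the summed CPM of the 20 astrocyte markers of its sample. Sparc then amounted to 28.9%, 27.0% and 13.999% of that sum in sgEgfr, against 12.8%, 14.3% and 24.3% in sgRosa 1, 2 and 3+4. Sparcl1 amounted to 33.0%, 34.1% and 22.8% in sgEgfr, against 23.6%, 23.3% and 29.6% in sgRosa. Mertk was the steadiest in the controls, with 0.201%, 0.135% and 0.180% in sgEgfr, against 0.176%, 0.181% and 0.173% in sgRosa. Megf10 was at 0.629%, 0.864% and 0.609% in sgEgfr, against 0.842%, 1.71% and 0.564% in sgRosa, with its highest value in sgRosa 2, the sample poorest in astrocyte markers. The exact two-sided permutation p was 0.3 for Sparc and Gpc5 and 0.4 to 0.9 for the other 7 (adjusted p = 0.9 for all 9).

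The partners of these proteins were described from 6 lists, in which 77 of 84 genes passed the filter and 0 were called. An unadjusted edgeR p under 0.05 was found for 5 of the 77 (6.49%), beside 2.68% of all genes tested, and CPM ranges stood apart for 7 (9.09%), beside 7.61% of all genes. Relatives of SPARC and the thrombospondins had 3 positive and 5 negative log2 fold changes among 8 tested (median -0.06). Thbs1, the other synaptogenic thrombospondin of young astrocytes, was at 6.53, 1.31 and 2.14 CPM in sgEgfr, against 2.75, 0.627 and 0.827 CPM in sgRosa 1, 2 and 3+4, a log2 fold change of 1.25 (SE 0.78). Smoc1, a SPARC-related matrix protein, had 0.33, and Spock3 and Fstl1, of the same family, had -0.22 and -0.17. Comp, also a thrombospondin, had 0 or 1 count a library.

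The list of other glypicans and enzymes of heparan sulphate had 12 of 15 on the negative side, with a median of -0.17 against 0.02 over all genes. It also held Gpcpd1 (-0.15), a phosphodiesterase of glycerophosphocholine that belongs to neither class, and without it 11 of 14 were negative, with a median of -0.18. Ndst2, an N-deacetylase and N-sulphotransferase of heparan sulphate, was at 4.76, 4.25 and 4.63 CPM in sgEgfr, against 9.74, 8.83 and 5.47 CPM in sgRosa 1, 2 and 3+4. Each sgEgfr sample was below every sgRosa sample, with a log2 fold change of -0.82 (SE 0.32, unadjusted p = 0.0342, edgeR adjusted p = 0.997). Hs6st2, a 6-O-sulphotransferase, went the other way with 4.502, 3.34 and 5.20 CPM in sgEgfr, against 1.91, 2.19 and 0.827 CPM in sgRosa, a log2 fold change of 1.40 (SE 0.45, unadjusted p = 0.0154, edgeR adjusted p = 0.997). Sulf1, a sulphatase that trims these chains, had -0.56, and the sulphotransferase Ndst1 had -0.21.

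Among synaptic partners, 9 of 14 were positive (median 0.08). Nptx1, a neuronal pentraxin that glypican 4 is known to release from axons, was at 3.49, 2.55 and 3.63 CPM in sgEgfr, against 0.282, 0.732 and 1.78 CPM in sgRosa 1, 2 and 3+4. Its groups did not overlap, with a log2 fold change of 1.78 (SE 0.62, unadjusted p = 0.0227, edgeR adjusted p = 0.997). Nptx2, a related pentraxin, had 0.78 (SE 0.48) with ranges that also stood apart, Lrrtm4, a glypican receptor of the postsynapse, had 1.02, and Nlgn1, the neuroligin that hevin binds, had 0.27 (SE 0.15) with ranges that did not overlap. Neuron markers took 0.0480% to 0.0582% of counts in sgEgfr and 0.0337% to 0.0496% in sgRosa, and 14 of 14 tested had positive log2 fold changes. Of 15, 14 were detected in every library, Slc17a7 was at 0 in sgEgfr 2, and their part in the values of these synaptic partners was not tested. The list of other secreted or surface factors was split evenly, 5 against 5 (median -0.01), with Tgfb2 at 0.56 and the norrin gene Ndp at 0.22. Tgfb1 had -1.69 (SE 0.74) at low levels. It was at 0.634, 0.131 and 0.262 CPM in sgEgfr, against 1.69, 1.15 and 0.509 CPM in sgRosa 1, 2 and 3+4. The groups overlapped, and the sgEgfr 2 value was under what 3 counts stand for in that library.

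The engulfment pathway had 7 positive and 9 negative members (median -0.10), and 0 of 16 had an unadjusted p under 0.05. Megf11, the closest relative of Megf10, was at 21.4, 15.9 and 13.3 CPM in sgEgfr, against 7.55, 14.3 and 7.82 CPM in sgRosa 1, 2 and 3+4, a log2 fold change of 0.77 (SE 0.33). Only sgRosa 2 reached the sgEgfr range. Pear1, another receptor of that family, had -0.51, Tyro3, a kinase of the MERTK family, had -0.34, and the integrin gene Itgav had -0.23. Oligodendrocyte precursor markers, all 10 detected in every library, took 0.116% to 0.184% of counts in sgEgfr and 0.102% to 0.160% in sgRosa, a sum in which Olig1 weighed most. Their log2 fold changes were positive for 8 of 10, with a median of 0.46. Pdgfra, the receptor that marks these precursors, was at 171, 100.3 and 91.5 CPM in sgEgfr, against 36.3, 79.0 and 29.2 CPM in sgRosa 1, 2 and 3+4, with ranges apart. Pdgfra was the only 1 of the 10 markers with ranges apart, and it was also on the mural and fibroblast list. The 2 negative markers were Sox10 (-0.33) and Bmp4 (-0.01). Like Megf11, Pdgfra was highest among sgRosa samples in sgRosa 2. The part of these markers in the Megf11 values was not tested.

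Genes of BMP signalling, which Chrdl1 restrains, were 8 positive and 8 negative (median 0.04). Id1, a direct target of this pathway, was at 11.985, 23.2 and 34.3 CPM in sgEgfr, against 9.32, 9.04 and 8.58 CPM in sgRosa 1, 2 and 3+4. The sgRosa samples were nearly equal and each sgEgfr sample lay above them, with a log2 fold change of 1.37 (SE 0.37, unadjusted p = 0.00661, edgeR adjusted p = 0.997). Id2, a related target, was at 250.3, 318 and 359 CPM in sgEgfr, against 165, 194 and 337 CPM in sgRosa, and did overlap (0.41, SE 0.29). Id3 (0.37) and Id4 (-0.03) overlapped too, as did Smad6 (-0.21) and Smad7 (-0.27) of the same list. Chrd, the founding chordin, had 1.18 (SE 0.48, unadjusted p = 0.0401, edgeR adjusted p = 0.997) at 1.44 to 1.96 CPM in sgEgfr and 0.423 to 1.02 CPM in sgRosa, and Bmp7, a ligand, had 0.57. Heat shock genes took 0.179% to 0.227% of counts in sgEgfr and 0.127% to 0.190% in sgRosa. Endothelial markers took 0.00994% to 0.0118% in sgEgfr and 0.00701% to 0.0104% in sgRosa. Log2 fold changes were positive for 8 of 10 heat shock genes (median 0.35) and for 12 of 15 endothelial markers (median 0.58). The part of both lists in the Id1 values was not tested.

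**Figure D5:**
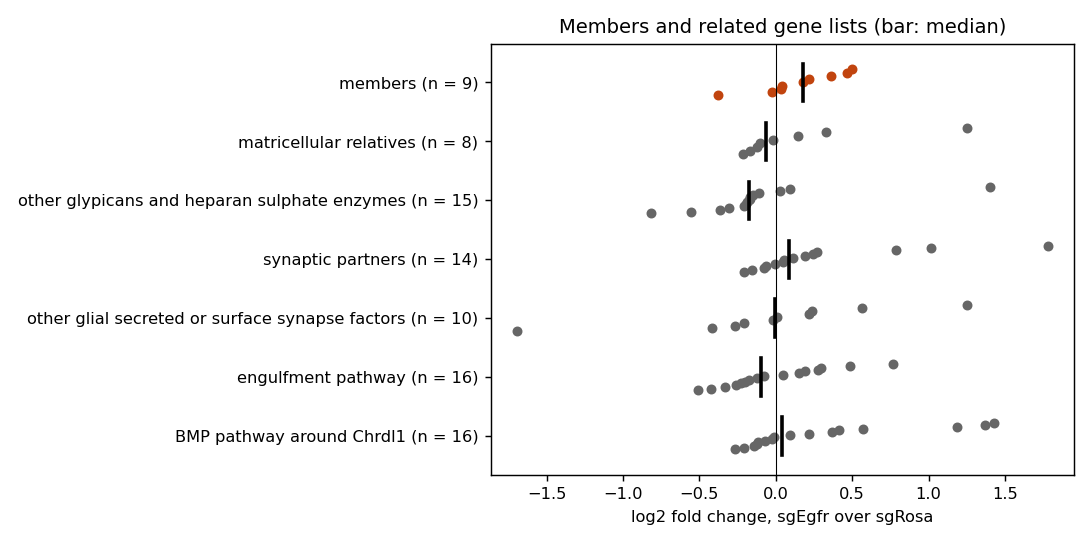
Log2 fold change, sgEgfr over sgRosa, of each tested gene of the members (top row) and of 6 lists of related genes, with the median of each row as a bar. No gene shown passed the test over all genes, and the medians run from -0.17 for the list of other glypicans and heparan sulphate enzymes, Gpcpd1 included, to 0.18 for the members.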

How the data were processed

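RNA-seq read counts of 7 libraries were used. The authors deposited whole-number counts per gene symbol, not normalised, as 1 table and as 7 per-library files that held the same values. The submitters' processing notes name mm10 as the build, featureCounts 2.0.1, STAR 2.7.5c and edgeR 3.42.4 among the tools, and fastp 0.23.2, MultiQC 1.11 and FastQC 0.11.9. The sources used here do not give the annotation, strand setting or treatment of multi-mapping reads. One gene antisense to Gpc5 shares 107 exon bases with it.

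Counts of sgRosa 3 and 4 were summed. Genes were filtered with filterByExpr (minimum count 10, minimum total 15), scaled with TMM and tested with glmQLFTest (edgeR 4.0.16 in R 4.3.3) on a design holding the guide alone, with Benjamini-Hochberg adjustment over 14936 genes. Standard errors come from the F statistic. Log2 CPM had a prior count of 2. Alternatives used DESeq2 1.42.0 and limma 3.58.1. The script was also run on simulated counts with the fitted spread of each gene. These held no shifts shared by the genes of a sample, so the run checked the code alone. Exon lengths and positions came from GENCODE M21 (GRCm38). Ratios used counts plus 0.5 on the log2 scale, and a planned ratio of Thbs2 to Thbs4 was left out because Thbs4 was near 0.

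Named genes were the members, Egfr, up to 4 genes per related list by smallest unadjusted p, and 2 pattern neighbours per member and up to 2 abundant genes per marker list. Comp, Slc17a7, Pdgfra, Gpcpd1, Ttr, Clic6, Bmp4, Id3, Id4, Smad6 and Smad7 were added after their values were seen. The members, lists and tests were chosen with earlier results of these data known. Marker lists were astrocyte, oligodendrocyte, oligodendrocyte precursor, microglia, endothelial, mural and fibroblast, neuron, ependymal and choroid plexus, and heat shock. Microglial markers took 0.0226% to 0.0498% of counts in sgEgfr and 0.0181% to 0.0361% in sgRosa, and mural and fibroblast markers 0.0705% to 0.0946% in sgEgfr and 0.0750% to 0.0777% in sgRosa.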

Additional observations from a re-analysis of the deposited data

How the results depend on the processing

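Across all alternatives run, 0 genes and 0 members were called. At an adjusted p under 0.1, DESeq2 called 3 genes, the other settings 0, and no setting a member. Fits with either of sgRosa 3 and 4 left out were added after seeing the data. Of 323 comparisons with an alternative, 284 kept direction or call and 39 changed sign, and the cause was not tested. The 284 include counts of called genes, which have no direction, and refits close to the main one, such as a prior count of 2. Sparc, Thbs2, Gpc5 and Megf10 log2 fold changes kept their sign in every fit. Values that turned were, with limma-voom, -0.49 for Chrdl1 and 0.052 for Mertk, and with quality weights -0.44 for Gpc4 and -0.0086 for Chrdl1. They were -0.11 for Gpc6 and -0.044 for Chrdl1 with 7 separate libraries, -0.036 and -0.15 for the same pair with the astrocyte score as a covariate, and -0.0033 for Sparcl1 with the endothelial score. With that score Gpc6 was at 1.17, against 0.03 without it. Relative to the geometric mean of the astrocyte markers Gpc6 was at -0.060.

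Deviations of same-numbered samples from their group means correlated at -0.11, 0.52 and 0.55 for samples 1, 2 and 3 (3+4 in sgRosa). For sgEgfr 2 and sgEgfr 3 these were the highest correlations with any sgRosa sample. The crossed values were -0.52 for sgEgfr 2 with sgRosa 3+4 and -0.58 for sgEgfr 3 with sgRosa 2. Sample sgEgfr 1 correlated best with sgRosa 2 (0.255). The main fit was unpaired, and whether the numbers mark pairs was not tested. With the replicate block, 0 genes were called, with 705 at an unadjusted p under 0.05 on 6 samples and 710 on 7 libraries, against 401 without it. Under this block the log2 fold changes were -0.10 for Gpc4, -0.28 for Chrdl1 and 0.0054 for Mertk, and on 7 libraries -0.10 for Gpc4 and -0.34 for Chrdl1.

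With each sgEgfr sample and then each sgRosa sample left out, 2 ranges are given for each gene. Log2 fold changes that turned ranged over -0.22 to 0.14 and -0.33 to 0.45 for Gpc6, -0.46 to 0.54 and -0.18 to 0.34 for Chrdl1, -0.19 to 0.16 and -0.30 to 0.15 for Mertk, -0.93 to 0.57 and -0.031 to 0.58 for Gpc4 and 0.059 to 0.31 and -0.13 to 0.52 for Sparcl1. Log2 ratios of counts that turned ranged over -1.13 to 0.20 and -0.73 to 0.20 for Gpc4 to Gpc6, 0.18 to 0.51 and -0.098 to 0.85 for Gpc5 to Gpc6 and -0.70 to -0.18 and -0.72 to 0.046 for Megf10 to Mertk. Log2 differences relative to astrocyte markers that turned ranged over -0.89 to 0.19 and -0.36 to -0.088 for Gpc4, -0.065 to 0.24 and -0.57 to 0.62 for Gpc6, -1.51 to 0.48 and -1.20 to -0.45 for Chrdl1, -0.59 to -0.34 and -0.79 to 0.0057 for Megf10 and -0.18 to 0.11 and -0.073 to -0.04 for Mertk. Chrdl1 rests on 78 counts over the 7 libraries and Thbs4 on 1.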
